A study of Homo sapiens with 10 samples.

Results

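The genes that mark PC3 and CWR22Rv1 cells in arginine-replete medium were described from 4 of the 10 arrays of the series, 2 of each line, chosen by their labels. CWR22Rv1 is a human prostate cancer line that came from a xenograft which had relapsed after castration of its host, and it carries the androgen receptor. PC3 is a human prostate cancer line from a bone metastasis that grows without androgen and is known for lacking the receptor. RNA was hybridised to Affymetrix Clariom S human arrays, in which each gene is read by a set of short probes. The study starved both lines of arginine, and the control medium was arginine-free RPMI with dialyzed serum to which 200 mg/L of arginine had been returned. The first CWR22Rv1 control had spent 24 h in that medium (its title counts it as hour 0 of starvation) and belonged to a time course. The second had spent 48 h in it and belonged to an experiment with DMKG, a cell-permeable form of alpha-ketoglutarate. The 2 PC3 controls, replicates 1 and 2, had spent 48 h in it, and no label says whether they were separate cultures, so the p-values measure the spread between these arrays, which may be technical.

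Luminal cells of the prostate secrete into the gland's lumen, and their identity is held by the androgen receptor with partners such as FOXA1 and HOXB13. The receptor binds a palindromic DNA element near its targets, of which KLK3 (prostate-specific antigen) is the best known, while cadherins, claudins and desmosomal proteins hold such cells in a sheet. Cells that lose these junctions often carry vimentin, integrins, matrix proteins and secreted proteases instead.

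Levels are log2 intensities after quantile normalization over all 10 arrays. Each gene's values are given first for CWR22Rv1 (24 h array, then 48 h array) and then for PC3 (replicate 1, then replicate 2). A gene was called at background in a line when both of its values there lay at or below the 95th percentile of that array's negative control probe sets, which was 7.22 to 7.51 in the 4 control arrays. A fold against such a line is a lower bound, written "at least", and no fold is given where both lines were at background. Because the authors normalized the PC3 arrays separately from the CWR22Rv1 arrays, cell line and array set cannot be told apart, and the text rests on genes that were at least 4-fold apart in every one of the 4 pairs of a PC3 and a CWR22Rv1 array. That rule used the values as they stand, also those below the background limit. A gene counted as at least 4-fold apart can therefore carry a lower-bound fold under 4. The medians of the deposited columns ran from 6.17 to 6.95 and were highest in PC3. Over all genes the 2 PC3 arrays correlated at 0.996 and the 2 CWR22Rv1 arrays at 0.968, against 0.854 to 0.862 between the lines. The 2 PC3 arrays differed 2-fold or more at 0.582% of genes and the 2 CWR22Rv1 arrays at 21.6%, against 39.2% to 42.3% for a pair across the lines.

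KLK3 is shown with its neighbour KLK2 because the label's marker gene did not separate the lines while other receptor targets did. The promoters below come from RefSeq (GRCh38.p14, plus strand of chromosome 19, KLK3 at chr19:50854665-50854964 and KLK2 at chr19:50873189-50873488) and run from 250 bases before to 50 bases after the gene's start. The capitals mark the 15 bases nearest to the full androgen receptor element, which is the half-site AGAACA, a spacer of 3 bases and the half-site's reverse complement TGTTCT.
KLK3: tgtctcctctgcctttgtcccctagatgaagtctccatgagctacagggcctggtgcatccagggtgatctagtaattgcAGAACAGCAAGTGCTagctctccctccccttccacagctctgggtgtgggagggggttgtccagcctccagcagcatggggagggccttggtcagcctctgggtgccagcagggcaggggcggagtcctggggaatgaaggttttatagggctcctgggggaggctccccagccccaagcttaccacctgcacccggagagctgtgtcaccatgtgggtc
KLK2: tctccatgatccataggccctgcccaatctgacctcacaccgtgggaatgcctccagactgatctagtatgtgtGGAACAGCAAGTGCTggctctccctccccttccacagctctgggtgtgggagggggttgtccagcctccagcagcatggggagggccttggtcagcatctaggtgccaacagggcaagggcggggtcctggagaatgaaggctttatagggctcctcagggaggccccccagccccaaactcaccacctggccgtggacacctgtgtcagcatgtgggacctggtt
The KLK3 stretch began at base -170 from the start and differed from the full element at 2 of the 12 bases compared, T10A and T13G, counted from 1 at its 5′ end. The KLK2 stretch began at base -176 and differed at 3, with A1G beside the same pair. The half-site was found on either strand in 14.8% of all 35116 promoters, and in 2 of 26 androgen receptor targets that had both a promoter and a value (7.69%), KLK3 and PMEPA1. A full element with up to 3 mismatches was found in 10.8% of all promoters and in 4 of these 26 targets (15.4%): KLK2, KLK3, PTGER4 and TRPM8.

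KLK3 stood at 6.43 and 8.25 in CWR22Rv1 and at 6.50 and 6.57 in PC3. The groups overlapped, 3 of the 4 arrays lay at background, and only the 48 h CWR22Rv1 array rose above it (limma difference, PC3 minus CWR22Rv1, -0.80 ± 0.61 (SE), adjusted p = 0.378). VIM, the intermediate filament vimentin, stood at 6.42 and 6.36 in CWR22Rv1 and at 15.13 and 15.01 in PC3, so that it was at least 209-fold higher in PC3 (adjusted p = 9.91e-05). Of the other markers written for CWR22Rv1, HOXB13, a transcription factor of the prostate lineage, overlapped between the lines (10.46 and 11.73 against 11.58 and 11.34). FOXA1, which opens chromatin for the receptor, was 14.4-fold higher in CWR22Rv1 (14.65 and 14.15 against 10.66 and 10.45). The androgen receptor gene had no value under its symbol and was not analysed here. All 4 markers written for PC3 were at least 4-fold higher there in every pair: VIM, AXL, CAV1 and CD44, the last with the closest values (8.55 and 9.71 against 11.89 and 11.73). TMPRSS2, a membrane protease also written for CWR22Rv1, was at least 1.71-fold higher there (7.01 and 9.28 against 3.54 and 3.68, limma adjusted p = 0.00701). KLK2, written for it too, is read further below. The labels' lines were thus separated by VIM, FOXA1, TMPRSS2 and the PC3 markers and not by KLK3 or HOXB13.

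Over 17687 genes, limma called 2712 higher in PC3 (15.3%) and 2804 lower (15.9%) at an adjusted p under 0.05, with a median difference of -0.03. The stricter rule, a call with at least 4-fold in every pair, took 1018 genes higher in PC3 (5.76%) and 1013 lower (5.73%). In 162 of the first set and 131 of the second both lines lay at background, so these differences lay below the level of the brighter negative controls and carry no fold. CWR22Rv1 alone was at background for 550 of the genes higher in PC3, and PC3 alone for 611 of those lower in PC3. All 4 arrays were above background for 220 and 247, with a median fold of 7.38 and 8.03. Their extremes were DKK1, a secreted WNT antagonist, 249-fold higher in PC3, and MAL2, a protein of apical transport, 287-fold higher in CWR22Rv1. On the deposited values with no further normalization the stricter rule took 1756 higher and 672 lower (72.3% against 50.1% higher in PC3), with the median difference over all genes at 0.41. All 1018 genes higher in PC3 passed on that scale and 671 of the 1013 lower did. Leaving out a PC3 array brought the limma calls down to 1229 higher and 1251 lower (without replicate 1) or 1247 and 1261 (without replicate 2), and leaving out a CWR22Rv1 array raised them to 4547 and 5074 (without the 24 h array) or 5045 and 5108 (without the 48 h array). The stricter rule took at least 1083 and 1106 in each case, and 1564 lower without the 48 h array.

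**Figure D1:**
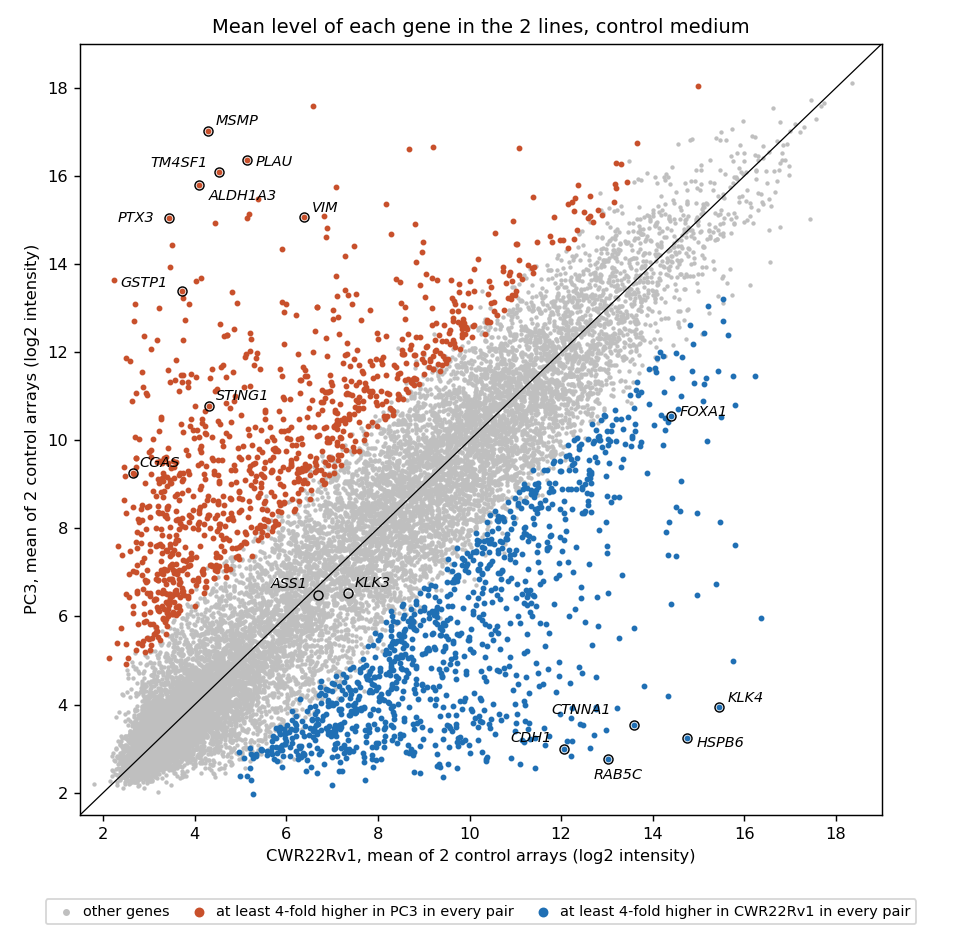
Each point is a gene, plotted by its mean log2 intensity over the 2 CWR22Rv1 control arrays (x axis) and the 2 PC3 control arrays (y axis), with the line of equality; orange and blue points are the 1018 and 1013 genes at least 4-fold apart in every pair. MSMP, PLAU and VIM sit high in PC3 and low in CWR22Rv1, KLK4, RAB5C and CTNNA1 the reverse, and KLK3 and ASS1 lie near the line.

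The 12 genes with the widest gap on the PC3 side were all at background in CWR22Rv1. MSMP, a secreted microprotein, stood at 4.40 and 4.19 against 17.12 and 16.95, at least 814-fold higher (adjusted p = 9.91e-05). TM4SF1, a tetraspanin-like membrane protein, stood at 4.66 and 4.40 against 16.16 and 16.02, at least 423-fold. PLAU, the urokinase that activates plasminogen, stood at 4.40 and 5.86 against 16.28 and 16.44, at least 510-fold. The PC3 values of these lay among the brightest of the array and the pair of arrays differed little. ALDH1A3, which makes retinoic acid, was at least 345-fold higher, MSN (moesin, which ties actin to the membrane) at least 219-fold and PTX3, a soluble pattern receptor, at least 206-fold. LPAR1 (a receptor for lysophosphatidic acid) followed at least 191-fold, APOBEC3C (a cytidine deaminase) at least 133-fold and CXCL8, the neutrophil chemokine interleukin-8, at least 95.4-fold. CST1, a secreted cystatin with close paralogs whose probes may not tell them apart, S100A16, a calcium-binding protein, and GRAMD1B, a sterol carrier, completed the set at least 77.3-fold, 52.7-fold and 50.1-fold higher.

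On the CWR22Rv1 side all 12 leading genes were at background in PC3. KLK4, an androgen-regulated protease of the same locus as KLK3, stood at 15.76 and 15.13 against 3.91 and 3.96, at least 271-fold higher in CWR22Rv1 (adjusted p = 9.91e-05). HSPB6, a small heat shock protein, stood at 15.41 and 14.11 against 3.50 and 2.99, at least 168-fold. CTNNA1, alpha-catenin, which links E-cadherin to actin, stood at 13.54 and 13.66 against 3.42 and 3.64, at least 75.2-fold. E-cadherin itself, CDH1, stood at 12.14 and 11.99 against 2.92 and 3.06, at least 26.0-fold. Both partners of the adherens junction were thus bright in both CWR22Rv1 arrays and dim in both PC3 arrays. RAB5C, a GTPase of early endosomes, was at least 50.7-fold higher, C1orf116, an androgen-responsive gene, at least 40.7-fold, EHF, an epithelial ETS factor, at least 38.4-fold, and PTPRB, a receptor phosphatase, at least 28.8-fold. SSX2B and SSX5, cancer-testis antigens of a family of near-identical copies on chromosome X, were at least 511-fold and 58.2-fold higher, and which copy was read is uncertain.

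The other 2 were histone genes. H1-5, a linker histone, stood at 16.31 and 15.19 against 5.02 and 4.97 (at least 334-fold), and H3C11, a copy of histone H3, at 15.04 and 13.62 against 4.12 and 4.27 (at least 125-fold). Because they were so far apart, the 60 replication-dependent histone genes with a value were counted, a set chosen after these values were seen. Of the 60, 5 were at least 4-fold higher in PC3 and 9 lower (15%), with differences from -10.75 to 5.91 and a median of -0.40 (0.00 on the deposited values). H3C7, another H3 gene, went the other way, at 3.83 and 4.64 against 10.28 and 10.01. Over all genes 5.76% were higher and 5.73% lower. In arginine-free medium 17 of the 60 were at least 4-fold lower in PC3 and 3 higher, with a median of -1.26. Near-identical coding sequences make each copy uncertain.

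GSTP1 is shown because it had the widest gap of the detoxification genes after ALDH1A3, and its promoter is known from prostate cancer for a dense run of CpG dinucleotides. It encodes glutathione S-transferase pi and stood at 3.30 and 4.14 in CWR22Rv1 and 13.37 and 13.42 in PC3, at least 65.5-fold higher in PC3 (adjusted p = 0.000138). Its RefSeq promoter (GRCh38.p14, chr11:67583562-67583861, plus strand) holds 36 CpG, in capitals, against a median of 14 over all promoters, and 12.7% of promoters hold as many. This count was added after the values were seen, and methylation was not measured.
GSTP1: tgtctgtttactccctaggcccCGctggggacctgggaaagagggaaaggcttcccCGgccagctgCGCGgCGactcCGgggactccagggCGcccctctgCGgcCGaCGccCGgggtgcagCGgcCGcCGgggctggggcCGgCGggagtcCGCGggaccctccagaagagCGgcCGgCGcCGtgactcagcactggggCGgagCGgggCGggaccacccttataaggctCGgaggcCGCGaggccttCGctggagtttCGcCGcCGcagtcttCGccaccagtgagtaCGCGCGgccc

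Epithelial junction genes were the list most often higher in CWR22Rv1. Of 41 members with a value, 27 were at least 4-fold lower in PC3 (65.9%) and 1 higher, and the median difference was -3.51 (-2.95 on the deposited values). AP1M2, a sorting adaptor of epithelial cells, stood at 12.28 and 11.97 against 2.99 and 3.34. CLDN7, a tight junction claudin, stood at 14.70 and 14.10 against 6.45 and 6.12, at least 131-fold. ST14, the membrane protease matriptase, was at least 15.1-fold higher in CWR22Rv1. PKP1, a desmosomal plakophilin, was the exception: 5.18 and 4.96 against 11.18 and 11.25, at least 14.4-fold higher in PC3. The keratins did not share the pattern. KRT8, a keratin of simple epithelia, was 2.22-fold lower in PC3 (adjusted p = 0.0255), and its partner KRT18 did not overlap between the lines but missed the threshold (13.76 and 12.35 against 11.74 and 11.88, adjusted p = 0.118). Of 13 keratins with a value, 1 passed the stricter rule, KRT80, at least 6.30-fold higher in PC3.

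**Figure D2:**
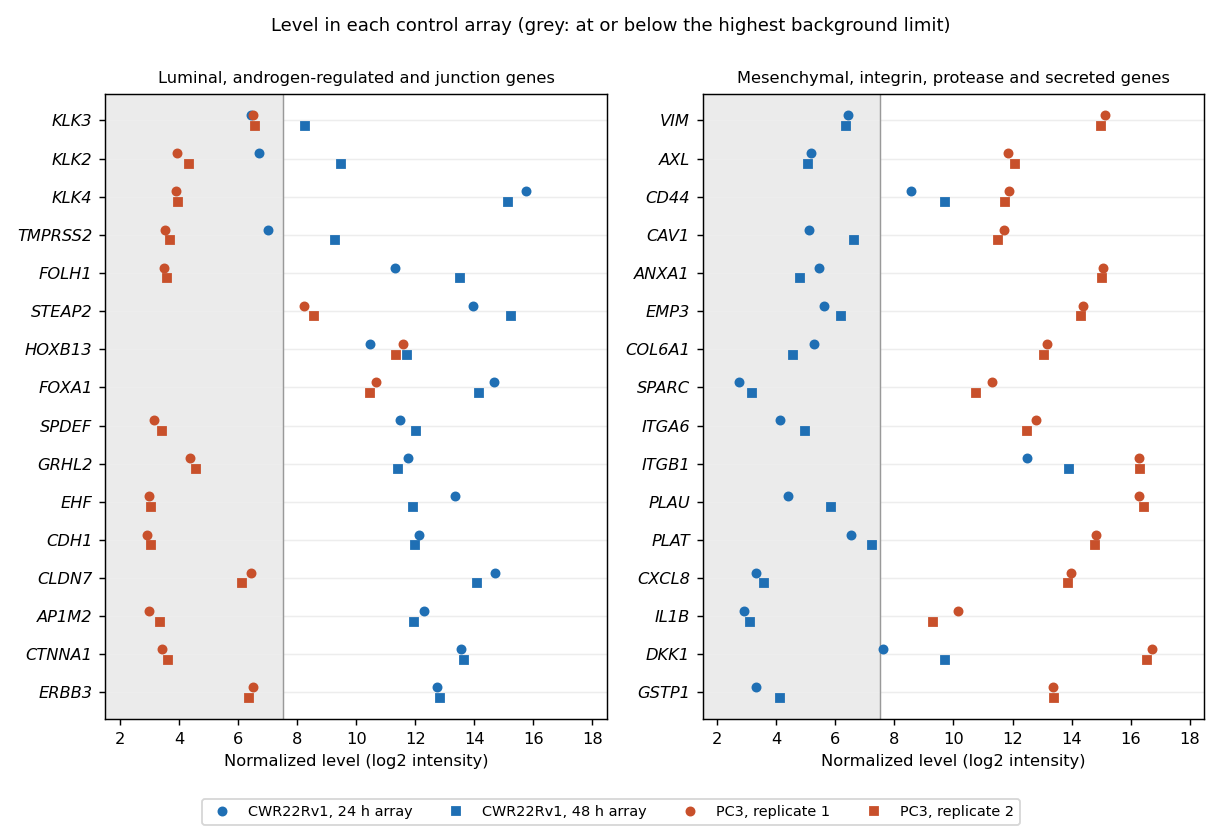
Log2 intensity of 32 genes (rows) in each control array, with CWR22Rv1 in blue and PC3 in orange, circles for the 24 h array or replicate 1 and squares for the 48 h array or replicate 2, and grey shading up to 7.51, the highest background limit. The lines separate in every gene but KLK3 and HOXB13, and the 2 blue points lie apart for KLK2, TMPRSS2 and FOLH1.

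Luminal regulators and androgen receptor targets passed the stricter rule more often on the CWR22Rv1 side. Of 15 regulators, 5 were at least 4-fold lower in PC3 (33.3%) and none higher: FOXA1, SPDEF, GRHL2, GATA2 and CREB3L4. SPDEF, an ETS factor of secretory epithelium, stood at 11.47 and 12.01 against 3.16 and 3.42, at least 20.7-fold. GRHL2, which keeps epithelial gene expression, was at least 18.7-fold higher and GATA2, a pioneer partner of the receptor, at least 14.7-fold, while CREB3L4 was above background in 1 CWR22Rv1 array alone (7.29 and 7.09 against 3.05 and 2.97). Of 38 receptor targets, 13 were at least 4-fold lower in PC3 (34.2%) and 1 higher, and 12 lay at background in both lines. By the limma threshold alone 19 were lower and 3 higher, where 15.9% and 15.3% of all genes were. STEAP2, a metalloreductase, stood at 13.96 and 15.24 against 8.24 and 8.57, 73.4-fold higher in CWR22Rv1. ZBTB10, a zinc finger repressor, was 37.1-fold higher, FOLH1 (prostate-specific membrane antigen) at least 32.9-fold and AZGP1, a secreted glycoprotein, at least 9.72-fold. ABCC4, a drug and nucleotide exporter, was the exception, at least 5.28-fold higher in PC3 (6.35 and 5.29 against 9.80 and 9.73).

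The 2 CWR22Rv1 control arrays disagreed at several of these targets. KLK2 stood at 6.71 in the 24 h array and 9.48 in the 48 h array, TMPRSS2 (a membrane protease) at 7.01 and 9.28, and FOLH1 at 11.30 and 13.51, each higher in the 48 h array. Over the whole list 7 of 38 targets were at least 2-fold higher in the 48 h array (18.4%, against 10.5% of all genes) and 6 were at least 2-fold lower. Other genes were higher in the 24 h array. SLC7A5 and SLC3A2, both chains of the large neutral amino acid transporter, stood at 15.72 and 16.38 in the 24 h array and at 12.37 and 13.25 in the 48 h array. GDF15, a cytokine of cell stress, stood at 13.46 and 8.03, and in PC3 at 7.56 and 7.31. Time in medium and experiment cannot be told apart in this pair.

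Mesenchymal genes were higher in PC3. Of 53 with a value, 25 were at least 4-fold higher there (47.2%) and 3 lower, with a median difference of 2.42 (3.08 on the deposited values). ANXA1, a phospholipid-binding annexin, stood at 5.45 and 4.81 against 15.08 and 15.02, at least 206-fold. EMP3, a small membrane protein, was at least 127-fold higher, COL6A1, a chain of collagen VI, at least 54.3-fold, and SPARC, a matrix glycoprotein, at least 12.7-fold. The 3 lower in PC3 were THBS1 (thrombospondin 1, at least 9.98-fold), CALD1 (caldesmon, 5.47-fold) and ACTA2 (smooth muscle actin, at background in both lines). Of 25 genes driven by or acting with YAP and TEAD, which respond to cell shape, 9 were higher (36.0%) and none lower. Of the 25, 8 lay at background in both lines. Among the 9 were AXL (a receptor kinase, at least 24.3-fold), MYOF (a membrane repair protein, at least 46.6-fold) and CCN1 (a matricellular protein, at least 23.2-fold). WWTR1, which encodes the YAP relative TAZ, was at least 6.79-fold higher. AMOTL1 and PTPN14, which bind YAP, were also higher.

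Some adhesion and matrix genes were higher in PC3. Of 20 integrins, 6 were at least 4-fold higher in PC3 (30%) and none lower, while the list's median difference was 0.16 and 9 members lay at background in both lines. Limma alone called 8 higher and 1 lower, where it called 15.3% and 15.9% of all genes, and 11 did not pass its threshold. ITGA6, a laminin receptor chain, stood at 4.11 and 4.97 against 12.79 and 12.48, at least 38.5-fold. Its partner chain ITGB4 was at least 2.58-fold higher and ITGB1 8.57-fold (12.50 and 13.91 against 16.28 and 16.33). ITGA3 (7.26 and 7.30 against 12.09 and 11.80) and ITGA2 (6.68 and 8.46 against 10.96 and 10.78) had 1 of the CWR22Rv1 arrays at background and are given without a fold, and ITGB3 was at least 1.77-fold higher. Of 11 laminins and basement membrane genes, 3 were higher (27.3%) and none lower: HSPG2 (perlecan), NID1 (nidogen) and LAMB1 (a laminin chain), at least 2.08-fold, 8.96-fold and 10.9-fold. Of 30 extracellular proteases and their inhibitors, 8 were higher and 3 lower (26.7% and 10.0%). PLAT, the tissue plasminogen activator, stood at 6.54 and 7.23 against 14.83 and 14.80, at least 175-fold, beside PLAU. SERPINB5 (maspin), MMP13, CTSV and MMP14 were at least 20.4-fold, 4.68-fold, 3.24-fold and 1.53-fold higher in PC3, and ST14, TMPRSS2 and MMP15 were higher in CWR22Rv1.

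Part of the inflammatory and secreted signals differed widely, mostly in 1 direction. Of 39 chemokines, cytokines and their regulators, 14 were at least 4-fold higher (35.9%) and none lower, and 22 lay at background in both lines. Limma alone called 19 higher and 6 lower, where it called 15.3% and 15.9% of all genes. IL1B and IL18, both cytokines matured by caspase-1, stood at 2.90 and 3.10 against 10.16 and 9.30, and at 3.70 and 3.03 against 9.85 and 9.39. IL7R, the interleukin-7 receptor, was at least 8.02-fold higher, OSMR, the oncostatin M receptor, at least 4.79-fold and CXCL6, a neutrophil chemokine, at least 2.45-fold. Of 37 growth factors and WNT or TGF-beta regulators, 9 were higher (24.3%) and 1 lower. Limma alone called 12 higher and 5 lower, against the same shares of all genes, and 20 did not pass its threshold. FST and NOG, which trap activins and BMPs, were at least 32.4-fold and 15.4-fold higher, INHBA, an activin chain, at least 24.4-fold, FGF2 at least 5.64-fold and IGFBP5 at least 2.76-fold, and IGFBP2, an IGF carrier, was at least 12.9-fold higher in CWR22Rv1. Growth factor receptors were split, 7 higher and 4 lower of 36. EPHA2 (at least 23.6-fold) and MET, the receptor for hepatocyte growth factor (6.96 and 8.14 against 11.97 and 12.12, with 1 array at background), stood on the PC3 side with AXL and PTK7, and ERBB3, the neuregulin receptor (at least 42.6-fold), EPHA3, EPHB3 and DDR1 on the CWR22Rv1 side. FLT1, EPHB6 and KDR also passed on the PC3 side but lay at background in both lines.

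S100 proteins and annexins, calcium-binding proteins of the membrane cortex, were higher at 11 of 28 (39.3%) and lower at 2 (7.14%). ANXA2 stood at 8.03 and 5.11 against 17.69 and 17.48, with 1 of the CWR22Rv1 arrays at background, and it has processed pseudogenes that leave its probes uncertain. ANXA6 stood at 7.39 and 7.47 against 13.25 and 12.94, likewise with 1 of the CWR22Rv1 arrays at background. ANXA3 was at least 12.5-fold and S100A6 at least 7.0-fold higher in PC3, and S100A11 (4.59-fold) and S100P (8.22 and 7.28 against 4.93 and 4.23, at least 1.31-fold) were higher in CWR22Rv1.

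**Figure D3:**
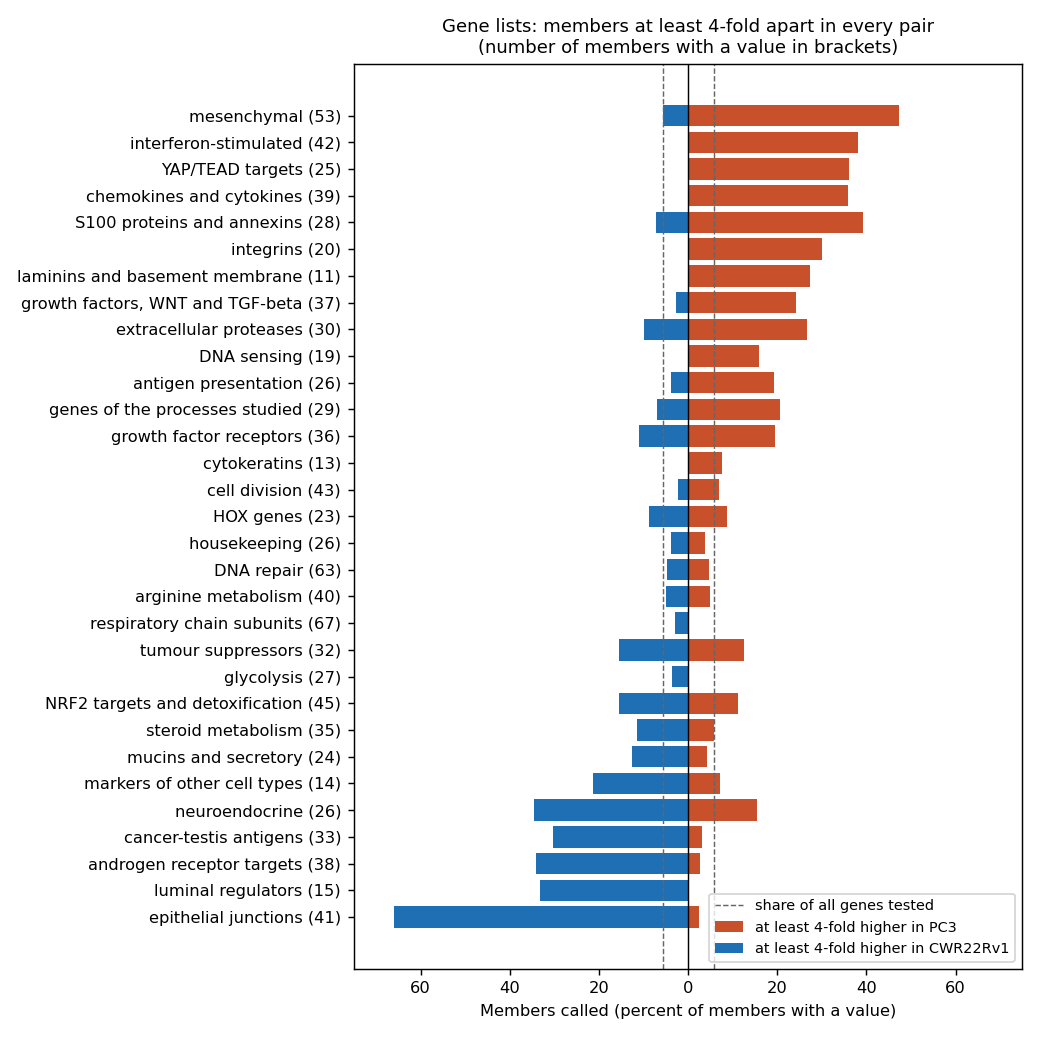
Share of each gene list's members with a value (number in brackets) that were at least 4-fold higher in PC3 (orange, to the right) or in CWR22Rv1 (blue, to the left) in every pair of control arrays; dashed lines mark the shares over all genes tested, 5.76% and 5.73%. Mesenchymal genes extend furthest to the right (47.2%) and epithelial junction genes furthest to the left (65.9%).

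Cytosolic DNA sensing was of interest because the study followed DNA leaking into the cytosol of starved cells. The enzyme cGAS binds such DNA and makes a cyclic dinucleotide, STING (STING1) responds to it, and the kinase TBK1 and the factor IRF3 pass the signal to interferon genes. CGAS stood at 2.65 and 2.63 in CWR22Rv1 and at 9.35 and 9.18 in PC3, at least 3.73-fold higher (adjusted p = 0.000144). STING1 stood at 4.42 and 4.20 against 10.74 and 10.84, at least 10.7-fold (adjusted p = 0.000144). IFI16, a nuclear DNA sensor, stood at 3.31 and 3.76 against 9.56 and 9.21, at least 4.05-fold (adjusted p = 0.000212). These 3 genes were thus at background in both CWR22Rv1 control arrays and above it in both PC3 arrays. IRF3 lay at background in both lines (4.09 and 4.04 against 3.80 and 3.52), although the study immunoprecipitated endogenous IRF3 protein from CWR22Rv1. A value at background on these arrays therefore does not show that a gene is silent. ENPP1, which degrades the cyclic dinucleotide, was 4.11-fold higher in PC3 (8.16 and 8.90 against 10.62 and 10.52), and RNASEH2B, a subunit of RNase H2, was 2.33-fold lower. The RNASEH2B call was lost on the deposited values (adjusted p = 0.427), on median-centred arrays (0.0702) and without either PC3 array (0.263 and 0.298), and that of ENPP1 without either PC3 array (0.0693 and 0.0569). The other 14 of 19 members did not pass the limma threshold: TBK1, IKBKE, IRF3, RELA, NFKB1, AIM2, DDX41, ZBP1, SAMHD1, BANF1, IFNB1, IFNA14, RNASEH2A and RNASEH2C. TBK1 stood at 10.79 and 11.04 against 10.24 and 10.27 (adjusted p = 0.135), and IFNB1, interferon beta, at 3.26 and 3.37 against 3.78 and 3.52, at background in both lines. On the deposited values IKBKE, RELA, NFKB1, SAMHD1 and RNASEH2C were called higher in PC3 (adjusted p from 0.0136 for SAMHD1 to 0.0465 for RELA).

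Interferon-stimulated genes were higher in PC3 at 16 of 42 (38.1%) and lower at none, with 19 at background in both lines and a median difference of 1.79. IFIT1, which binds foreign RNA, stood at 2.85 and 2.54 against 10.21 and 9.96, at least 6.58-fold. LGALS3BP, a secreted glycoprotein, was at least 33.6-fold higher, IFI6 at least 7.04-fold, UBE2L6 (the enzyme that attaches ISG15) at least 6.38-fold, IFIT3 at least 3.51-fold and IFI44 at least 2.81-fold. Of 26 antigen presentation genes, 5 were higher (19.2%) and 1 lower. B2M, the light chain of MHC class I, was 9.13-fold higher in PC3 (12.65 and 11.97 against 15.48 and 15.51). HLA-E and HLA-F, class I heavy chains of a polymorphic family whose probes may cross-react, PSMB8, an immunoproteasome subunit, and ERAP2, a peptide trimmer, were at least 4.58-fold, 2.35-fold, 1.82-fold and 1.40-fold higher, and HLA-DQB1 was lower with both lines at background.

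**Figure D4:**
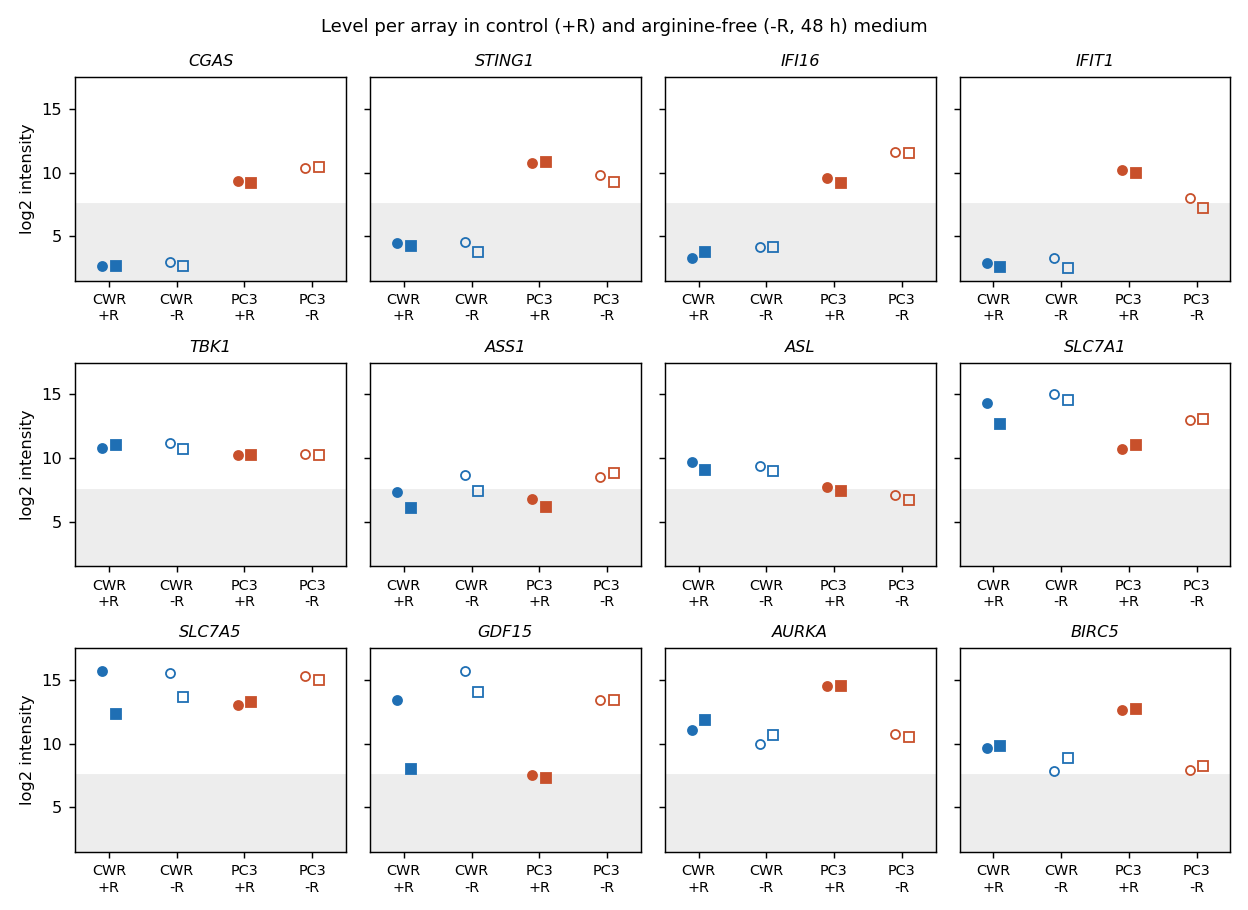
Log2 intensity of 12 genes in CWR22Rv1 (blue) and PC3 (orange), in control medium (+R, filled) and after 48 h without arginine (-R, open), 2 arrays each (circles and squares, with the 24 h control and the time course array as circles in CWR22Rv1), with grey shading up to 7.51. CGAS, STING1, IFI16 and IFIT1 stayed in the grey zone in all 4 CWR22Rv1 arrays, and the PC3 and CWR22Rv1 points of BIRC5 are apart in control medium and overlap without arginine.

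Arginine genes showed few wide gaps. Cells make arginine from citrulline through ASS1 and ASL, take it up through cationic transporters, and break it down through arginases or turn it into polyamines. ASS1 stood at 7.31 and 6.05 against 6.80 and 6.16, with the groups overlapping and 3 of 4 arrays at background (difference -0.20 ± 0.50 (SE), adjusted p = 0.804). ASL was 3.43-fold lower in PC3 (9.73 and 9.03 against 7.75 and 7.45, adjusted p = 0.0141), a call that was lost on the deposited values (adjusted p = 0.107) and without either PC3 array (0.0763 and 0.135). SLC7A1, the main cationic amino acid transporter, was 6.39-fold lower in PC3 (14.36 and 12.68 against 10.68 and 11.02, adjusted p = 0.0186). Of 40 members, 2 were at least 4-fold higher in PC3 and 2 lower (5.0% each, near the share over all genes): SMS, spermine synthase (11.41 and 12.90 against 15.31 and 15.44), and CPS1, which makes carbamoyl phosphate, on the PC3 side, and AMD1, which feeds polyamine synthesis (14.72 and 15.54 against 12.41 and 12.47), and CASTOR2, a relative of the arginine sensor CASTOR1, on the CWR22Rv1 side. AMD1 and SMS, 2 of the enzymes of polyamine synthesis, thus differed in opposite directions, while SRM, another of them, did not pass (difference -0.40, limma adjusted p = 0.52).

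By the limma threshold alone 6 of the 40 were higher and 9 lower in PC3, where 15.3% and 15.9% of all genes were. SAT1, which acetylates polyamines, was 3.93-fold, OAT, an ornithine aminotransferase, 2.25-fold and OAZ2, an antizyme, 1.93-fold higher, with AZIN2 at background in both lines. ARG2, the mitochondrial arginase, was at least 3.09-fold, SLC7A2, a cationic transporter, 2.66-fold and ALDH18A1, of proline synthesis, 2.03-fold lower, with ALDH4A1, which oxidises a proline breakdown product, at least 1.11-fold lower and AGMAT at background in both lines. The list's median was -0.39 and turned to 0.12 on the deposited values, where ARG2, SLC7A2, ALDH18A1, ALDH4A1 and AGMAT lost the call with ASL and AZIN1 and SLC7A6 gained one. Leaving out a PC3 array lost these 6 and AZIN2, OAT and OAZ2 as well, and without replicate 1 also SAT1 (adjusted p = 0.092) and SLC7A1 (0.0521). The other 24 members beside ASS1 did not pass: OTC, NAGS, ARG1, NOS1, NOS2, NOS3, GATM, GAMT, PYCR1, PYCR3, PRODH, SRM, AZIN1, OAZ1, DDAH1, SLC7A3, SLC7A5, SLC7A6, SLC7A7, SLC3A2, SLC38A9, CASTOR1, PRMT1 and PRMT5.

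Genes of the processes that the study followed (mitochondria, DNA sensing and repair, histone methylation, stress) were then read. Some were discussed in it and others, among them EZH2, SETDB1, SUV39H1 and KDM6B, were added for their process, and the list is no independent evidence of a direction. Of 29, 6 were at least 4-fold higher in PC3 and 2 lower (20.7% and 6.90%). Beside CGAS and STING1 these were AK5, an adenylate kinase (5.92 and 5.97 against 11.01 and 10.87), ULBP3, a ligand of the natural killer receptor NKG2D (4.10 and 3.09 against 8.42 and 8.35), OPA1, a GTPase of mitochondrial fusion (12-fold), and SUV39H1, an H3K9 methyltransferase (10.8-fold). On the other side were KDM6B, an H3K27 demethylase (12.26 and 11.11 against 7.60 and 7.44, 17.9-fold higher in CWR22Rv1), and BRCA1, of homologous recombination (5.84-fold). EZH2 and SETDB1, methyltransferases of H3K27 and H3K9, were 4.05-fold and 4.50-fold lower in PC3, NDUFA9, a complex I subunit, 3.39-fold and TOMM20, of the mitochondrial import pore, 2.05-fold. The TOMM20 call was lost on the deposited values (adjusted p = 0.55), on median-centred arrays (0.0562) and without either PC3 array (0.307 and 0.423), that of NDUFA9 without either PC3 array (0.092 and 0.111) and that of EZH2 without replicate 2 (0.0814). On the deposited values ULBP1 and CDK12 gained one (0.0178 and 0.00812). The remaining 17 did not pass the threshold: ASS1, CDK12, COX5A, DCLRE1C, EHMT2, GAPDH, GDF15, IFNA14, IFNB1, IRF3, KDM4A, KDM6A, RELA, SDHA, SUV39H2, TBK1 and ULBP1.

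Germline and neural genes were more often on the CWR22Rv1 side. Of 33 genes listed as cancer-testis genes, most but not all of them normally confined mainly to the germline, 10 were at least 4-fold lower in PC3 (30.3%). Only PRAME was higher (7.67 and 7.23 against 9.82 and 9.86, with 1 array at background). MAGEA4 stood at 12.43 and 11.95 against 4.66 and 4.32, CTAG2 at 12.36 and 10.28 against 3.30 and 3.15, and MAGEA1, MAGEA2, XAGE1B and BEX1 were lower in PC3 too, most of them in families of near-identical copies. Of 26 neuroendocrine genes, 9 were lower in PC3 (34.6%) and 4 higher (15.4%). SYT4, a synaptotagmin of secretory vesicles, stood at 8.55 and 11.46 against 2.94 and 2.86. VGF, a secreted neuropeptide precursor, was at least 7.26-fold, SYP (synaptophysin) at least 4.32-fold, SNAP25, of vesicle fusion, at least 2.63-fold, SCG3 (a granin) at least 2.43-fold and SRRM4, a neural splicing factor, at least 1.89-fold higher in CWR22Rv1. On the PC3 side NTS (neurotensin) was at least 1.63-fold higher and AURKA, a mitotic kinase, 8.18-fold, while FOXA2 and NCAM1 passed with both lines at background. Of 23 HOX genes, 18 lay at background in both lines, HOXC10 and HOXC9 were higher in CWR22Rv1, and HOXB9 was higher in PC3 with HOXD13, the last at background in both.

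Metabolic, repair and growth lists split or stayed near the share over all genes. Of 32 tumour suppressors, 4 were higher in PC3 and 5 lower: SMAD3 (8.17 and 6.59 against 11.67 and 11.69, with 1 array at background), NF2 (9.02-fold) and ANXA7 with GSTP1 against CTNNA1, ZBTB16 (at least 7.95-fold), CDKN1A, the cell cycle inhibitor p21 (at least 12.6-fold), CDKN1B, the inhibitor p27 (9.53-fold) and BRCA1. Of 45 NRF2 targets and detoxification genes, 5 were higher and 7 lower. GSTM3 (7.89 and 6.64 against 11.33 and 11.45, with 1 array at background) and CBR1, a carbonyl reductase (10.3-fold), were higher beside GSTP1 and ALDH1A3, and AKR1C1, AKR1C2 and AKR1C3, near-identical ketosteroid reductases, were lower with ALDH3A2 (31.8-fold), a fatty aldehyde dehydrogenase, and GSTK1. ABCC3 passed in one direction and ABCC2 in the other, both with both lines at background, and ALDH1A1 was above background in 1 CWR22Rv1 array alone (7.93 and 6.37 against 3.40 and 4.34). Of 35 steroid genes, SLCO1B3, a steroid and bile acid importer (at least 18.8-fold), and HSD17B2, which inactivates testosterone (at least 19.7-fold), were higher in PC3. UGT2B15 and UGT2B17 (6.47 and 7.75 against 2.97 and 2.67, with 1 CWR22Rv1 array at background), close paralogs that glucuronidate androgens, HSD17B11 and AKR1C3 were lower. Secretory genes numbered 24, of which SPINK1, a trypsin inhibitor (11.84 and 12.13 against 3.66 and 3.93), and MUC13, a membrane mucin, were lower in PC3 with S100P, and ANXA10 was higher.

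Few housekeeping processes differed widely. Of 67 respiratory chain subunits, 2 were at least 4-fold lower in PC3 (2.99%), ATP5F1D and NDUFA5, and none higher. On the deposited values 3 were at least 4-fold higher in every pair and none lower. The list's median difference turned from -0.31 to 0.19 on that scale, so the direction rested on the normalization. Of 27 glycolysis genes, PFKL, a phosphofructokinase, was 11.7-fold lower and none was higher, and on the deposited values 1 was lower and 1 higher. Of 63 DNA repair genes, 3 were higher (MRE11 at 10.6-fold, ERCC3 at 7.68-fold and MGMT, at background in both) and 3 lower (FANCF, 11.11 and 11.85 against 7.71 and 7.22 with 1 PC3 array at background, RAD50 at 10.6-fold and BRCA1). On the deposited values 9 were at least 4-fold higher in every pair and 2 lower. MRE11 and RAD50, partners in the complex that binds broken ends, thus differed in opposite directions: 9.06 and 8.79 against 12.36 and 12.31 for the former, 13.56 and 13.68 against 10.07 and 10.36 for the latter. Of 26 housekeeping genes 1 was higher (B2M) and 1 lower (REEP5), and the list's median was -0.08. Of 14 markers of blood, endothelial, stromal and liver cells, 11 lay at background in both lines. The 3 above it were CD68 (at least 5.75-fold higher in PC3), ALB (10.33 and 12.25 against 4.09 and 3.05) and HBA1 (11.99 and 13.60 against 5.86 and 5.69), albumin and a globin with a near-identical copy, both higher in CWR22Rv1, and their part in any result was not tested. LUM also passed, at background in both lines.

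Wide gaps sometimes came in runs of neighbours. Among 9201 genes above background in a line and placed on a chromosome other than Y, 855 were at least 4-fold higher in PC3 (9.29%) and 876 lower (9.52%). In genome order there were 11 runs of 4 or more such neighbours higher in PC3 and 9 lower. On chromosome 17 a run of 6 was lower in PC3: KAT2A, RAB5C, STAT5B, STAT5A, STAT3 and NAGLU. STAT3, which carries cytokine signals to the nucleus, stood at 7.39 and 8.08 against 3.56 and 3.03. KAT2A, a histone acetyltransferase, stood at 8.77 and 10.50 against 4.16 and 3.79. The PC3 values of all 6 lay at background. At CTNNA1 on chromosome 5 (-10.07) the 2 neighbours on each side showed no such gap, and the nearest were HSPA9 at 0.05 and SIL1 at -0.20. The third neighbours were wide apart in opposite directions, EGR1, an immediate-early factor, at -6.21 and STING1 at 6.48.

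On chromosome 19 a stretch of 22 consecutive zinc finger genes, from ZNF506 to ZNF730, was lower in PC3 throughout, by -1.11 (ZNF431) to -5.68 (ZNF730), and 19 of the 22 passed the stricter rule, in runs of 7 and 11 with ZNF714 between them. ZNF43 stood at 12.56 and 12.76 against 8.74 and 8.82 and ZNF98 at 11.83 and 12.11 against 8.10 and 7.51. These genes arose by local duplication, so probes of one may read another, and their differences are not independent. On chromosome 7 a run of 6 from STEAP1 to FZD1, a WNT receptor (12.09 and 12.57 against 7.67 and 7.47), was lower in PC3, and over 453 genes that chromosome's median was -1.0, with 18.8% lower. On chromosome 20 the median over 253 genes was 1.0, with 18.2% higher, against -0.05 over all chromosomes. On chromosome 10 a run of 7 around PLAU was higher, with VCL (vinculin, 11.90 and 11.77 against 14.98 and 15.16), and so was the IFIT cluster with LIPA. Runs of 5 and 7 lower in PC3 on chromosome X held SSX and MAGEA genes. DNA copy number was not measured, and its part in these runs was not tested.

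**Figure D5:**
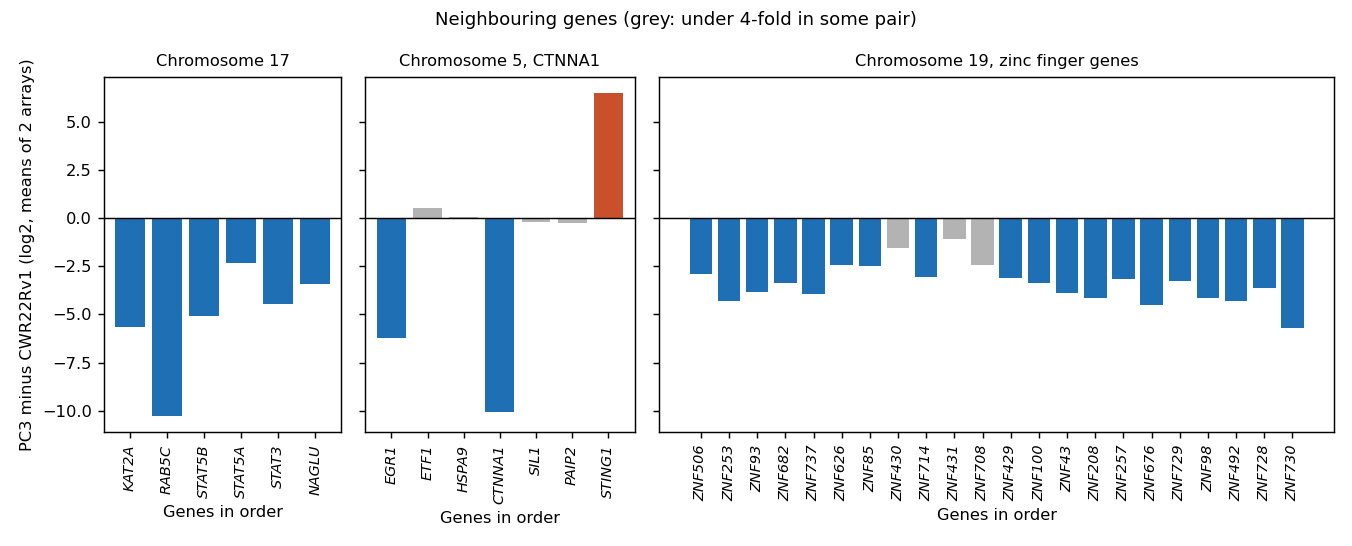
Difference in mean log2 intensity, PC3 minus CWR22Rv1, for genes in genome order on chromosome 17 (6 genes), around CTNNA1 on chromosome 5 (7 genes) and in a zinc finger stretch of chromosome 19 (22 genes); coloured bars are genes at least 4-fold apart in every pair and grey bars are not. All bars of the chromosome 17 and 19 panels point down, while in the chromosome 5 panel CTNNA1 and EGR1 point down, STING1 up, and the 4 other bars lie between -0.25 and 0.53.

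The same comparison in arginine-free medium at 48 h used 4 other arrays, 2 of each line. There limma with the stricter rule took 1059 genes higher in PC3 (5.99%) and 1108 lower (6.26%). Of the 1018 genes higher in control medium, 805 were in the higher set here (79.1% of the control set and 76.0% of the starved set), and of the 1013 lower, 820 were in the lower set (80.9% and 74.0%). No gene passed the rule in opposite directions in the 2 media. A test of the difference between the media, in a limma fit over all 10 arrays without pairing, called 0 of 17687 genes (1290 at an unadjusted p under 0.05, smallest adjusted p 0.0832). The titles place a control and a 48 h starved CWR22Rv1 array in each of the 2 experiments, and the deviations of arrays of 1 experiment correlated at 0.758 over genes. With that experiment as a block, an alternative chosen after seeing the data, limma called 961 genes (5.43%), of which 450 had a signed PC3 minus CWR22Rv1 difference shifted to the PC3 side in arginine-free medium and 511 (2.89%) to the CWR22Rv1 side. The result of this test thus rested on the pairing. CGAS stood at 2.97 and 2.62 in starved CWR22Rv1 and at 10.34 and 10.40 in starved PC3, and STING1 at 4.52 and 3.78 against 9.79 and 9.24. The lines thus stayed apart at both genes without arginine.

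The median difference of cell division genes had opposite signs in the 2 media. In control medium 3 of 43 were at least 4-fold higher in PC3, the kinases AURKA and CDK1 and the survivin gene BIRC5, and 1, the helicase subunit MCM7, was 9.78-fold lower, with a median difference of 0.57. In starved medium none was higher and 12 were lower, with a median of -1.77. The 2 CWR22Rv1 control arrays differed here as well, with 10 of 43 at least 2-fold higher in the 48 h array and 1 lower. BIRC5 stood at 9.68 and 9.80 against 12.64 and 12.72 in control medium and at 7.87 and 8.89 against 7.94 and 8.25 without arginine. CDK1 stood at 11.17 and 11.62 against 13.82 and 13.78, and without arginine at 11.08 and 11.68 against 10.57 and 10.51. The PC3 values of both were lower in the starved than in the control arrays. The signed difference shifted by -3.25 ± 0.24 (SE) for CDK1 and -3.23 ± 0.34 for BIRC5 (limma with the experiment block, adjusted p = 0.000875 and 0.00207, against 0.0836 and 0.105 without it). Both genes were named for a wide gap in the control arrays, which enter this test too. Their shifts and p-values are therefore not independent of that choice. With the block 34 of the 43 cell division genes shifted to the CWR22Rv1 side (2.89% of all genes did) and none to the PC3 side, and without it none was called. In the time course the control had spent 24 h in medium and the starved array 48 h, so time and arginine are mixed there. ASS1 stood at 8.66 and 7.42 in starved CWR22Rv1 and at 8.53 and 8.86 in starved PC3, again overlapping.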

How the data were processed

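RNA of CWR22Rv1 and PC3 cells was measured on 10 Affymetrix Clariom S arrays. The authors made log2 values with the Transcriptome Analysis Console, in 3 sets normalized separately and deposited as such without a stated normalization method or version in the sources used here. The deposited log2 values of 24351 probe sets were quantile normalized over all 10 arrays with limma 3.58.1 in R 4.3.3 (tables and figures in Python 3.11.15 with matplotlib 3.10.9). The number of arrays limits the precision.

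Probe sets were named through the platform annotation. Those with 1 symbol numbered 17709 and gave 17687 genes, each read by its brightest probe set. The 2 PC3 and the 2 CWR22Rv1 control arrays were compared with lmFit and eBayes (2 residual and 3.69 prior degrees of freedom), with Benjamini-Hochberg adjustment over all genes at 0.05. With 2 against 2 a two-sided exact permutation p cannot go below 0.333, so none was used. The starved arrays were fitted the same way, and the media were compared in a fit over all 10 arrays, without and, chosen after seeing the data, with the experiment of the CWR22Rv1 arrays as a block, since arrays of 1 experiment deviated together (correlation 0.758).

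The members and the 31 gene lists were chosen with earlier results of these data known. Named were KLK3, VIM, the 12 genes with the widest smallest-pair gap in each direction, at most 6 members of each list in each direction by that gap, and every member with a value of the arginine, DNA sensing and studied-process lists; others were named after their values were seen. Genes of chromosome Y were left out. Members at background in both lines are counted in the text for some lists only. Among the lists without that count, they were 24 of 37 growth factors, 23 of 35 steroid genes and 20 of 36 growth factor receptors. They were also 20 of 24 secretory, 19 of 53 mesenchymal, 16 of 33 cancer-testis and 15 of 26 neuroendocrine genes. Of S100 proteins and annexins they were 13 of 28, and of antigen presentation genes 13 of 26. The script was tested on simulated data.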

Additional observations from a re-analysis of the deposited data

Results flagged for a closer look

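Of 250 genes chosen for naming, 33 differed between the media in their PC3 minus CWR22Rv1 difference. The fit was limma over all 10 arrays with the experiment of the CWR22Rv1 arrays as a block, chosen after seeing the data. With that block 5.43% of all genes were called. Of the 33, 27 were also called with the PC3 numbers in the block (3.56% of all genes) and none without a block. Many of the 250 were named for a wide gap in control medium, so their shifts are not independent of that choice. Values are the log2 shift of the signed difference from control to arginine-free medium, and 20 were negative, to the CWR22Rv1 side. The cell division genes CDK1, BIRC5 and AURKA shifted by -3.25, -3.23 and -2.68, and the interferon-stimulated IFIT1, IFI44 and IFI6 by -2.66, -1.93 and -1.72. ITGB3, CST1, CTSV and HSD17B2 shifted by -2.20, -2.13, -2.07 and -2.02, CD68, CXCL6 and ANXA2 by -1.97, -1.94 and -1.83, and RNASEH2A, SUV39H1, HSPG2 and FOXA2 by -1.60, -1.51, -1.44 and -1.43. IKBKE, OAZ2 and PTX3 had the least negative of these values, -1.26, -1.25 and -1.21. To the PC3 side, ALB, ITGB4 and HBA1 shifted by 3.62, 2.92 and 2.53, FGF2, ITGA3 and FST by 2.40, 2.25 and 2.01, and the DNA sensor IFI16 by 1.62. GSTM3, ITGA2, STEAP2, AGMAT, RAD50 and ZBTB10 shifted by 1.57, 1.47, 1.38, 1.27, 1.24 and 1.17.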

How the results depend on the processing

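On values as deposited, limma called 4899 genes higher and 1647 lower in PC3 in control medium, 1756 and 672 at least 4-fold in every pair, and 5011 and 1840 in starved medium; this scale moves the median of all genes by construction. The higher calls were then 74.8% of all, against 49.2%. With 8-fold in place of 4-fold in every pair 549 and 533 genes remained, and with 2-fold 2220 and 2323. The methods' t-test with Benjamini-Hochberg adjustment called 260 and 223, against 2697 and 2738 unadjusted. Leaving out 1 array leaves a line with a lone sample, assumed to vary like the other line: limma then called 1229 to 5045 higher and 1251 to 5108 lower, fewest without a PC3 array and most without a CWR22Rv1 array, and the 4-fold rule took 1083 to 1392 and 1106 to 1564. In starved medium the ranges were 1525 to 4996 and 1686 to 5191. Other alternatives kept each count within 1.5 times. Of 340 genes checked singly, none that was called changed direction under any alternative run; 8 lost the call on values as deposited, 3 on median-centred arrays, 1 with quantiles over the 4 control arrays, and 16 or 14 without PC3 replicate 1 or 2. For the lines within a medium no paired analysis was possible because the CWR22Rv1 replicate numbers come from accession order and mark no sample of the PC3 set. Between the media, the experiment of the CWR22Rv1 arrays as a replicate block moved the calls from 0 to 450 shifted to the PC3 side and 511 to the CWR22Rv1 side, and with the PC3 numbers in the block too to 285 and 344. The PC3 arrays of 1 number did not deviate together (correlation -0.0203). Signal near the negative controls limits folds: 8478 of 17687 genes lay at background in both lines.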

Other observations

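Of 3739 probe sets that carry no gene symbol and are no controls, 118 were at least 4-fold higher in every PC3 control array than in every CWR22Rv1 one (3.16%) and 123 were lower (3.29%); they were named no further. In glycolysis, 12 of 27 genes were at least 2-fold lower in the 48 h CWR22Rv1 control array than in the 24 h one and 1 was higher, and in the NRF2 and detoxification list 17 of 45 were lower and 2 higher, against 1969 lower and 1856 higher of 17687 genes.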
